A study of Rattus norvegicus with 8 samples.

Results

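Translation initiation and elongation factors are described here in astrocytes of Sprague Dawley rat pups that had been exposed to melanoma cells. The genes were chosen by symbol: those that begin with Eif1 to Eif6, Eef1 or Eef2, without the eIF2 kinases and the eIF4E-binding proteins, and with at least 10 counts in at least 3 libraries. Of 28546 gene entries, 56 had such a symbol and 54 reached that count, and all 54 passed the filter on low counts that left 14445 genes for testing. The other two were Eef1a2, with 49 counts over all libraries, and Eif4e1b, with 0 counts, which allows up to 3. Eif5 and Eif3e are not analysed here.

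RNA-seq libraries came from 3 groups, all with the melanoma cells called 12-273 BM and an exposure of 24 h. For sh-APP (n = 3) those cells expressed a hairpin against the gene of the amyloid precursor protein. For anti-Abeta (n = 3) they expressed a scrambled hairpin and an antibody to amyloid beta was added, and for control (n = 2) they expressed the scrambled hairpin with no antibody. The hairpin was thus in the melanoma cells and not in the sequenced astrocytes, the labels name 1 hairpin and 1 melanoma line, and no astrocytes without melanoma exposure were among these libraries. The labels speak of a co-culture in one place and of conditioned medium in another, and the sources used here do not settle which applied.

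Protein synthesis begins when eIF2, a complex of an alpha (Eif2s1), a beta (Eif2s2) and a gamma subunit (Eif2s3), carries the initiator tRNA and GTP to the small ribosomal subunit. The subunit is held ready by eIF1, eIF1A and the large eIF3 complex, and is brought to the mRNA cap by eIF4E, the scaffold eIF4G and the helicase eIF4A. eIF2B recharges eIF2 with GTP, and phosphorylated eIF2 alpha blocks eIF2B, which is how stress signals slow initiation. After the ribosomal subunits have joined, eEF1A brings each aminoacyl-tRNA, the eEF1B complex recharges eEF1A, and eEF2 moves the ribosome along the mRNA. The kinase Eef2k inhibits eEF2. Much of the control over these factors acts on the proteins, by phosphorylation, which RNA levels do not show.

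The libraries held 34250464 to 47831595 counts each. TMM factors, which correct for RNA composition, were 1.043 to 1.062 in sh-APP, 0.9875 to 1.026 in anti-Abeta and 0.9005 and 0.9235 in control. The 13 mitochondrially encoded genes took 1.96 to 2.50% of the counts in sh-APP, 3.005 to 3.623% in anti-Abeta, and 5.04 and 6.21% in control. Anti-Abeta replicate 2 differed most within its group. Tested against counting noise, its pairs had a chi-square of 25.6 and 37.6 per degree of freedom, against 14.2 to 16.8 in the other pairs within groups. All 10 astrocyte markers were tested, with a summed level of 17053 to 19545 CPM in sh-APP, 13928 to 14931 CPM in anti-Abeta, and 15801 and 16165 CPM in control (CPM, the count normalised for library size with the TMM factor). Gfap averaged 6532 CPM in sh-APP, 3728 CPM in anti-Abeta and 2911 CPM in control. Gja1 averaged 2146 CPM in sh-APP, 2643 CPM in anti-Abeta and 3682 CPM in control, so the markers did not share 1 direction. By the test described below, 7 of the 10 were higher and 1 lower in sh-APP against control. These are 70% and 10%, against 25.8% and 27.9% of all tested genes. In anti-Abeta against control 4 were higher and 3 lower (40% and 30%, against 12.7% and 16.6%). Of 8 microglial markers, 3 were tested and summed to 10.3 to 13.0 CPM in sh-APP, 11.8 to 21.6 CPM in anti-Abeta, and 11.7 and 15.3 CPM in control, and Cx3cr1 was at 0 in every library. Of 6 endothelial markers, 3 were tested, with sums of 2.05 to 3.75 CPM in sh-APP, 2.30 to 5.54 CPM in anti-Abeta, and 3.48 and 4.17 CPM in control, and Cldn5 was at 0 in every library. Neuronal markers (8 of 8 tested) summed to 156 to 166 CPM in sh-APP, 227 to 293 CPM in anti-Abeta, and 334 and 359 CPM in control, mostly from Map2. Oligodendrocyte-lineage markers (8 of 8 tested) summed to 2737 to 2892 CPM in sh-APP, 2686 to 3015 CPM in anti-Abeta, and 2307 and 2387 CPM in control, mostly from Olig1. Pericyte and fibroblast markers (5 of 7 tested) summed to 30.3 to 33.0 CPM in sh-APP, 20.8 to 26.2 CPM in anti-Abeta, and 18.8 and 22.9 CPM in control. Of 8 melanocyte and melanoma markers, 4 were tested, summing to 2251 to 2441 CPM in sh-APP, 3519 to 3789 CPM in anti-Abeta, and 4259 and 4329 CPM in control, nearly all from Gpnmb, while Tyr, Tyrp1, Dct and Mlana were below the filter. App, which the astrocytes also express, averaged 612 ± 31.7 CPM in sh-APP, 539 ± 32.3 CPM in anti-Abeta and 573 ± 19.8 CPM in control (SD), and did not pass the test in any comparison. App in rat astrocytes does not check a hairpin that acts in melanoma cells.

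In sh-APP against control, the factor genes split by complex and by subunit. Of 6 genes of eIF2 and the other initiator-tRNA carriers 5 were lower, 3 of 5 eIF2B genes and 6 of 12 eIF3 genes were higher, and the eIF4 group had lower Eif4e, Eif4a2 and Eif4g2 beside higher Eif4g1 and Eif4h. The elongation factor Eef2, its kinase Eef2k and 3 of 5 genes of the eEF1 group were higher. Of the 54 genes, 19 rose and 21 fell by the quasi-likelihood test of edgeR, at a Benjamini-Hochberg adjusted p below 0.05 over all tested genes, and 14 did not pass. Of all tested genes, 53.7% passed this test, 25.8% as higher and 27.9% as lower. All sh-APP libraries lay above control in 26 factors and below it in 23, against 5164 and 5055 of the 14445 tested genes. All lay above anti-Abeta in 11 factors and below it in 19, against 2777 and 3193 of the tested genes. Groups that do not overlap were thus common among all genes. The median log2 fold change was 0.04 over the factors and 0.03 over all tested genes. The factors had no common direction, and most tested genes passed as well, so the counts alone do not set the factors apart. With library totals alone as the scaling, the median over all tested genes was 0.23 and the split of the factors was 27 higher and 18 lower. Between 15 and 21 factors were higher and between 18 and 21 lower when each library was left out in turn.

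**Figure D1:**
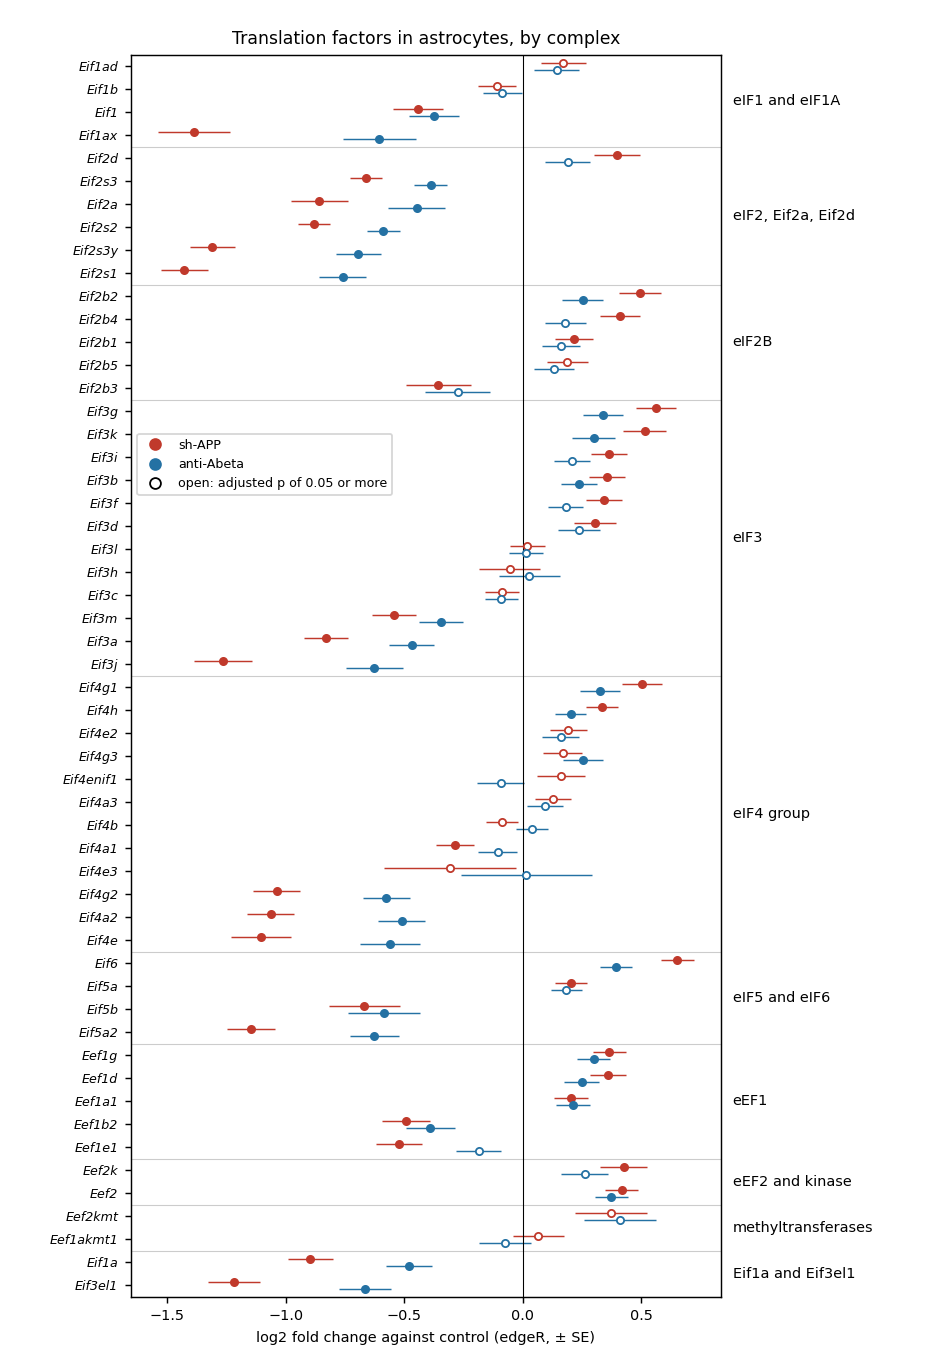
Log2 fold change against control (x axis, edgeR, with SE) of each of the 54 factor genes (y axis), grouped by complex, in sh-APP (red, n = 3) and anti-Abeta (blue, n = 3) against control (n = 2). Filled points have an adjusted p below 0.05. Eif2s1 and Eif1ax lie farthest left in sh-APP (-1.43 and -1.39), and Eif6 farthest right (0.65).

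Promoter sequence is shown for 8 genes that fell and 5 that rose in sh-APP, since members of the same complex stand on both sides. The genes were picked with their fold changes and motifs known, and the last 4 that fell are all those of the fallen factors whose promoter holds the ETS core. Each is the 100 bases before the start of the gene, 5′ to 3′ on the strand of the gene, from the RefSeq promoter table of build GRCr8. Capitals mark the motifs that were searched for on both strands: the ETS core CCGGAAG, the E-box CACGTG and the cyclic AMP response element TGACGTCA. The YY1 motif AAGATGGC and the palindromic NRF1 motif were searched for too and are in none of these windows. Neighbouring copies did not share bases unless the capitals run together. Eif2s1, Eif2s2, Eif4a2, Eif4e, Eif1ax, Eif5a2, Eif2a and Eif3m fell, and Eif2b2, Eif3g, Eif3i, Eif6 and Eef2 rose.
Eif2s1, chr6:103405780-103405879, plus strand: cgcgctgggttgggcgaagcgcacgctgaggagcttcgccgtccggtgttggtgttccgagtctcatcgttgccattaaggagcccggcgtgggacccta
Eif2s2, chr3:163855571-163855670, minus strand: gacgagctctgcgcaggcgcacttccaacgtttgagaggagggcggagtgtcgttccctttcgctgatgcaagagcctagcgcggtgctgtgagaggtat
Eif4a2, chr11:91275324-91275423, minus strand: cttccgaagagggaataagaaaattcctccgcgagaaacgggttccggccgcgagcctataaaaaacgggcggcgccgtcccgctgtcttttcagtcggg
Eif4e, chr2:229740653-229740752, plus strand: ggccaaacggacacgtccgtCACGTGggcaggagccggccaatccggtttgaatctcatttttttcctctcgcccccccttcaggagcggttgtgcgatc
Eif1ax, chrX:39322024-39322123, minus strand: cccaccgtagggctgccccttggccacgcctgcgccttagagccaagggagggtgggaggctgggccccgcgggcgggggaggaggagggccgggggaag
Eif5a2, chr2:113657734-113657833, plus strand: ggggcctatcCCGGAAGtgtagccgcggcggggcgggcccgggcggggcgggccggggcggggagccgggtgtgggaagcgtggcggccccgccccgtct
Eif2a, chr2:144911260-144911359, plus strand: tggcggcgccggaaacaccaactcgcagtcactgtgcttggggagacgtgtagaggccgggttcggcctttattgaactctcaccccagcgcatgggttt
Eif3m, chr3:111897194-111897293, minus strand: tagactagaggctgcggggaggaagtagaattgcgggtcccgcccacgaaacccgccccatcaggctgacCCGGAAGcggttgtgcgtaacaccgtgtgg
Eif2b2, chr6:110597879-110597978, plus strand: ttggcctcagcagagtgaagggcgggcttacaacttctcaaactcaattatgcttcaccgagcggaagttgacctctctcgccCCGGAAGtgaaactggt
Eif3g, chr8:27709947-27710046, minus strand: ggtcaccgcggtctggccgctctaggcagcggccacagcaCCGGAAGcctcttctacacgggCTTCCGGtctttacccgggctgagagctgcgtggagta
Eif3i, chr5:147226911-147227010, minus strand: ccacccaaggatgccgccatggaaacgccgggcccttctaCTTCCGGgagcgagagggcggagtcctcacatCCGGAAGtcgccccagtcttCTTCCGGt
Eif6, chr3:164791411-164791510, minus strand: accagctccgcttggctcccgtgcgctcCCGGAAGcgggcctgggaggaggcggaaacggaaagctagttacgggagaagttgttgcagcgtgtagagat
Eef2, chr7:9189239-9189338, minus strand: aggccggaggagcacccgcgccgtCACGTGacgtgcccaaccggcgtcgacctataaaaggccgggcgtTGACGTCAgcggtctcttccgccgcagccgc

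The printed windows of Eif2b2, Eif3g, Eif3i and Eif6, which rose, and of Eif5a2 and Eif3m, which fell, held the ETS core, with 2 copies in Eif3g and 3 in Eif3i. Those of Eif2s1, Eif2s2 and Eif4a2 held no motif searched, nor did those of Eif1ax and Eif2a, where the core stands elsewhere in the promoter. Over the whole promoter, from 250 bases before to 50 after the start, 46 of the 54 factors had exactly 1 promoter in the table. The ETS core stood in 15 of 46 (32.6%), against 16.7% of the promoters of all tested genes. Among factors higher in sh-APP it stood in 8 of 18 (44.4%), namely Eif2b1, Eif2b2, Eif2d, Eif3d, Eif3g, Eif3i, Eif3k and Eif6. Among lower factors it stood in 4 of 19 (21.1%), namely Eif1ax, Eif2a, Eif3m and Eif5a2. Among factors that did not pass it stood in 3 of 9 (33.3%), the E-box in 1 of 9 (11.1%) and the YY1 motif in 0 of 9. The E-box stood in 7 of 18 higher factors (38.9%), among them Eef2, Eef2k, Eif4g1 and Eif4h, in 3 of 19 lower ones (15.8%) and in 9.38% of the promoters of tested genes. The YY1 motif stood in 1 of 18 higher factors and in 5 of 19 lower ones (26.3%: Eef1e1, Eif2a, Eif2s3, Eif2s3y and Eif4e), against 5.54%. The response element stood in 1 factor, Eef2, and the NRF1 motif in 1 factor, Eif3k (2.17% each), against 3.08% and 1.9% of the promoters of tested genes. These are matches of letters, given without a test, and the motifs were chosen with the fold changes known. Their shares were not counted apart for the higher and the lower of all tested genes.

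eIF2 was lower in all of its subunit genes. Eif2s1, the alpha subunit that stress kinases phosphorylate, had 142, 167 and 158 CPM in sh-APP and 254, 271 and 219 CPM in anti-Abeta, against 442 and 397 CPM in control. All 3 groups were apart, with sh-APP lowest and control highest. The log2 fold change of sh-APP against control was -1.43 ± 0.10 (SE, adjusted p = 4.08e-06), and the fold changes that follow are on the same scale, with their SE and then the adjusted p. Eif2s2, the beta subunit, had 110, 113 and 111 CPM in sh-APP and 138, 135 and 137 CPM in anti-Abeta, against 214 and 197 CPM in control. The groups did not overlap, and the fold change of sh-APP was -0.88 ± 0.07 (adjusted p = 4.08e-06). Eif2s3, the X-linked gamma subunit, had 124, 122 and 118 CPM in sh-APP and 145, 153 and 142 CPM in anti-Abeta, against 191 and 192 CPM in control, a fold change of -0.66 ± 0.07 in sh-APP (adjusted p = 1.18e-05). Its Y-linked copy Eif2s3y fell further, at 68.4, 78.2 and 67.2 CPM in sh-APP and 103, 122 and 102 CPM in anti-Abeta, against 180 and 173 CPM in control (-1.31 ± 0.10, adjusted p = 4.08e-06). The copies are close in sequence, and how reads were divided between them is not known, so both levels are uncertain. The 4 subunit genes were lower in sh-APP than in anti-Abeta too, with fold changes of -0.67 ± 0.09 for Eif2s1 (adjusted p = 0.000837), -0.62 ± 0.09 for Eif2s3y (0.000984), -0.29 ± 0.06 for Eif2s2 (0.00509) and -0.27 ± 0.06 for Eif2s3 (0.00764). In bulk RNA of a culture, fewer cells of a type and less RNA per cell cannot be told apart, and this holds for each difference given here.

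The 2 other genes of this group, which can bring initiator tRNA to the ribosome without eIF2, went opposite ways. Eif2a, whose product is not a subunit of eIF2 in spite of its name, had 36.1, 40.7 and 42.5 CPM in sh-APP and 58.1, 53.9 and 46.8 CPM in anti-Abeta, against 80.3 and 63.9 CPM in control. Its groups did not overlap, and its fold change in sh-APP was -0.86 ± 0.12 (adjusted p = 8.33e-05). Eif2d had 68.7, 67.3 and 67.2 CPM in sh-APP and 66.2, 53.0 and 56.8 CPM in anti-Abeta, against 52.3 and 50.5 CPM in control. It rose in sh-APP by 0.40 ± 0.10 (adjusted p = 0.00375), and all of its sh-APP libraries lay above all others. It did not pass in sh-APP against anti-Abeta (adjusted p = 0.0911).

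The eIF2B subunits, which recharge eIF2, did not follow it. Eif2b2, the beta subunit, had 105, 104 and 101 CPM in sh-APP and 79.9, 87.5 and 93.9 CPM in anti-Abeta, against 68.9 and 77.2 CPM in control, and rose in sh-APP by 0.49 ± 0.09 (adjusted p = 0.000446). Eif2b4, the delta subunit, had 68.5, 63.4 and 60.8 CPM in sh-APP and 53.3, 55.8 and 55.1 CPM in anti-Abeta, against 46.1 and 50.5 CPM in control, and rose by 0.41 ± 0.09 (adjusted p = 0.00139). In both genes the sh-APP libraries lay highest, above anti-Abeta, and anti-Abeta lay above control. Eif2b1, the alpha subunit, rose by 0.22 ± 0.08 (adjusted p = 0.0400), and Eif2b3, the gamma subunit, fell by 0.36 ± 0.14 on the log2 scale (0.0440). Neither of these calls was kept without control replicate 1, when the adjusted p was 0.0939 for Eif2b1 and 0.473 for Eif2b3, and the Eif2b1 call was lost without control replicate 2 (0.122) and without sh-APP replicate 1 or 2 (0.103 and 0.0971). The Eif2b3 call was lost as well without sh-APP replicate 1, 2 or 3 (0.0991, 0.0593 and 0.0893) or anti-Abeta replicate 3 (0.0531), with limma-voom (0.0504), and with library totals alone, where its fold change was -0.15 (0.376). Eif2b1 did not pass with DESeq2 (0.0503), with DESeq2-type size factors (0.0506) or with no low-count filter (0.0539). Eif2b1 overlaps Gtf2h3 on the chromosome, so its reads may include those of the neighbour. Eif2b5, the catalytic epsilon subunit, did not pass, at 83.4, 78.5 and 76.4 CPM in sh-APP, 77.7, 71.1 and 80.4 CPM in anti-Abeta, and 66.0 and 73.4 CPM in control (0.19 ± 0.09, adjusted p = 0.0811).

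**Figure D2:**
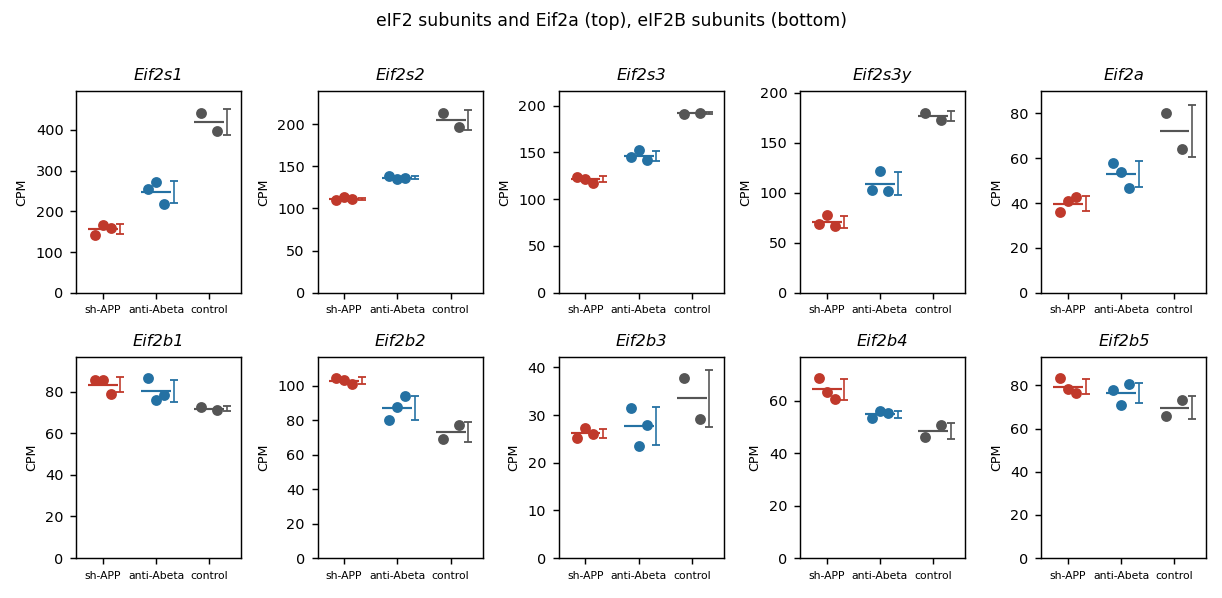
Level (y axis, CPM after TMM scaling, from 0) of eIF2 subunit genes and Eif2a (top row) and of eIF2B subunit genes (bottom row) in sh-APP (n = 3), anti-Abeta (n = 3) and control (n = 2). Points are libraries, lines are means and bars are SD. In the top row the control libraries lie highest (442 and 397 CPM for Eif2s1), and in Eif2b2 and Eif2b4 the sh-APP libraries do.

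Genes of eIF1 and eIF1A, which open the small subunit for scanning, either fell or did not pass. Eif1ax, the X-linked gene of eIF1A, had 243, 296 and 316 CPM in sh-APP and 428, 622 and 421 CPM in anti-Abeta, against 737 and 754 CPM in control. It fell by 1.39 ± 0.15 on the log2 scale in sh-APP (adjusted p = 1.68e-05), with the groups apart and anti-Abeta replicate 2 nearest to control. Eif1, the start-codon fidelity factor, had 589, 699 and 570 CPM in sh-APP and 609, 627 and 712 CPM in anti-Abeta, against 910 and 773 CPM in control (-0.44 ± 0.11, adjusted p = 0.00350). Without control replicate 1 that call was lost (0.0744), and with library totals alone as well (0.0615). Its copy Eif1b had 49.8, 48.9 and 47.4 CPM in sh-APP and 48.1, 52.4 and 48.03 CPM in anti-Abeta, against 53.5 and 51.5 CPM in control (adjusted p = 0.281). Eif1ad, an eIF1A-domain gene, had 35.6 to 40.0 CPM in sh-APP, 34.3 to 38.7 CPM in anti-Abeta, and 33.2 and 33.4 CPM in control (0.152). Eif1a, a close copy of Eif1ax whose reads may be shared with it, had 90.4, 102 and 90.3 CPM in sh-APP and 113, 134 and 130 CPM in anti-Abeta, against 187 and 164 CPM in control (-0.90 ± 0.09, 1.39e-05).

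eIF3, the scaffold on which the other factors assemble, divided within the complex. Of 12 subunit genes, 6 were higher, 3 lower and 3 did not pass in sh-APP against control. Eif3j, a loosely bound subunit that sits near the mRNA entry channel, had 52.8, 59.5 and 58.8 CPM in sh-APP and 82.6, 107 and 76.5 CPM in anti-Abeta, against 136 and 138 CPM in control. The groups were apart, and the fold change in sh-APP was -1.26 ± 0.12 (adjusted p = 7.67e-06). Eif3j overlaps Spg11, which adds uncertainty to its level. Eif3a, the largest core subunit, had 203, 250 and 209 CPM in sh-APP and 279, 287 and 285 CPM in anti-Abeta, against 418 and 367 CPM in control (-0.83 ± 0.09, 1.96e-05). Eif3m had 214, 241 and 203 CPM in sh-APP and 247, 243 and 265 CPM in anti-Abeta, against 346 and 293 CPM in control (-0.54 ± 0.09, 0.000348). Both lay highest in control.

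The 6 subunit genes that rose did so by 0.31 to 0.56. Eif3g, an RNA-binding subunit, had 165, 159 and 150 CPM in sh-APP and 142, 123 and 141 CPM in anti-Abeta, against 109 and 105 CPM in control, and rose in sh-APP by 0.56 ± 0.08 (adjusted p = 0.000136). Eif3k had 91.7, 90.4 and 86.1 CPM in sh-APP and 81.9, 68.3 and 80.8 CPM in anti-Abeta, against 60.5 and 64.6 CPM in control (0.51 ± 0.09, 0.000472). In both, all sh-APP libraries were above all anti-Abeta libraries and these above control, though Eif3k did not pass in sh-APP against anti-Abeta (0.0674). Eif3i (0.37 ± 0.08, adjusted p = 0.00140), Eif3b (0.35 ± 0.08, 0.00178), Eif3f (0.34 ± 0.07, 0.00181) and Eif3d (0.31 ± 0.09, 0.0113) rose as well, and Eif3d did not pass without control replicate 1 (0.0776). Eif3b, Eif3g and Eif3i form a module of the yeast complex, and Eif3i overlaps Tmem234. Eif3c, Eif3h and Eif3l did not pass, with fold changes of -0.09 ± 0.07, -0.05 ± 0.13 and 0.02 ± 0.07, and Eif3c had 497 to 514 CPM in sh-APP, 490 to 519 CPM in anti-Abeta, and 508 and 568 CPM in control. The entry Eif3el1 fell by 1.22 ± 0.11 (adjusted p = 5.77e-06). Its symbol is also an older name of Eif3e in the GRCr8 gene table. That table holds Eif3el1 as an entry on chromosome 1 as well, with a span of 1376 bases and no promoter listed. Which gene its reads came from is uncertain.

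**Figure D3:**
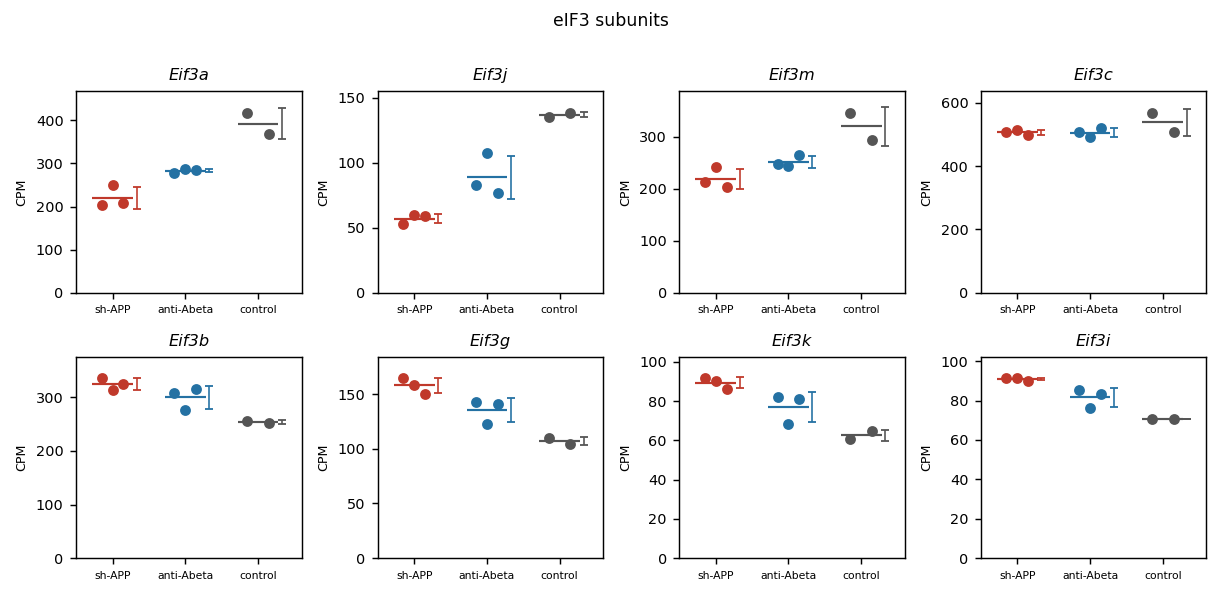
Level (y axis, CPM after TMM scaling, from 0) of 8 eIF3 subunit genes in sh-APP (n = 3), anti-Abeta (n = 3) and control (n = 2), with libraries as points, means as lines and SD as bars. Eif3a, Eif3j and Eif3m are highest in control, Eif3b, Eif3g, Eif3k and Eif3i are lowest there, and Eif3c overlaps between groups.

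In the eIF4 group, which recognises the cap and unwinds the mRNA, 2 genes rose and 4 fell of 12. Eif4e, the cap-binding protein, had 231, 276 and 260 CPM in sh-APP and 336, 455 and 328 CPM in anti-Abeta, against 546 and 553 CPM in control. The groups were apart and the fold change in sh-APP was -1.10 ± 0.13 (adjusted p = 2.11e-05). Its relative Eif4e2, which binds the cap but not eIF4G, had 61.7, 62.9 and 63.0 CPM in sh-APP and 62.8, 57.6 and 63.1 CPM in anti-Abeta, against 55.7 and 53.7 CPM in control (0.19 ± 0.08, 0.0532). Eif4a2, one of the eIF4A helicases, had 132, 141 and 134 CPM in sh-APP and 193, 227 and 177 CPM in anti-Abeta, against 301 and 266 CPM in control (-1.06 ± 0.10, 6.81e-06). The major helicase gene Eif4a1 had 467, 489 and 468 CPM in sh-APP and 581, 492 and 539 CPM in anti-Abeta, against 606 and 551 CPM in control (-0.29 ± 0.08, 0.00998). Eif4a2 was thus far lower in sh-APP than in control while Eif4a1 was slightly lower, and the Eif4a1 call was lost without control replicate 1 (0.113) or with library totals alone (0.448).

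The eIF4G scaffolds moved in different directions. Eif4g1, the main scaffold, had 69.2, 72.3 and 72.1 CPM in sh-APP and 59.4, 63.8 and 65.6 CPM in anti-Abeta, against 46.9 and 53.5 CPM in control, and rose in sh-APP by 0.50 ± 0.09 (adjusted p = 0.000344). Eif4g2, also called DAP5, which lacks the eIF4E-binding part, had 535, 628 and 612 CPM in sh-APP and 743, 930 and 774 CPM in anti-Abeta, against 1239 and 1191 CPM in control, and fell by 1.04 ± 0.10 on the log2 scale (8.08e-06). In neither gene did the groups overlap, though Eif4g1 did not pass in sh-APP against anti-Abeta (0.103). Eif4g3 had 72.4, 75.7 and 76.7 CPM in sh-APP and 83.5, 77.3 and 77.8 CPM in anti-Abeta, against 62.1 and 71.3 CPM in control, and did not pass in sh-APP (0.107). Eif4h, a helper of the helicase, rose by 0.33 ± 0.07 (0.00108). Eif4b, the other helper, had 134 to 138 CPM in sh-APP, 146 to 153 CPM in anti-Abeta, and 143 and 147 CPM in control (0.294). Eif4a3, the helicase of the exon junction complex (0.170), Eif4enif1, which carries eIF4E into the nucleus (0.201), and Eif4e3, with 2.36 to 3.15 CPM in sh-APP and 2.92 and 4.00 CPM in control (0.379), did not pass. Eif4a1, Eif4a2, Eif4g1 and Eif4g2 host small nucleolar RNA genes in their introns.

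Ratios between copies within a library, which do not depend on the scaling, showed the same shifts. The log2 ratio of Eif4e2 to Eif4e averaged -2.03 ± 0.117 in sh-APP and -2.59 ± 0.337 in anti-Abeta, against -3.33 ± 0.0492 in control (SD). That of Eif4a2 to Eif4a1 averaged -1.81 ± 0.0182 in sh-APP and -1.44 ± 0.276 in anti-Abeta, against -1.03 ± 0.0288 in control. That of Eif4g2 to Eif4g1 averaged 3.05 ± 0.0897 in sh-APP and 3.69 ± 0.157 in anti-Abeta, against 4.6 ± 0.173 in control. In these 3 ratios no group overlapped another, and anti-Abeta lay between. The ratio of Eif4g3 to Eif4g1 was lower in sh-APP than in control, with a log2 difference of -0.34, while in anti-Abeta it overlapped control. The exact two-sided permutation test over libraries gave p = 0.2 against control and p = 0.1 between the arms for Eif4e2 to Eif4e, Eif4a2 to Eif4a1 and Eif4g2 to Eif4g1, the smallest it can give at these group sizes. After adjustment over the 21 tests of 7 ratios in 3 comparisons the p was 0.247.

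**Figure D4:**
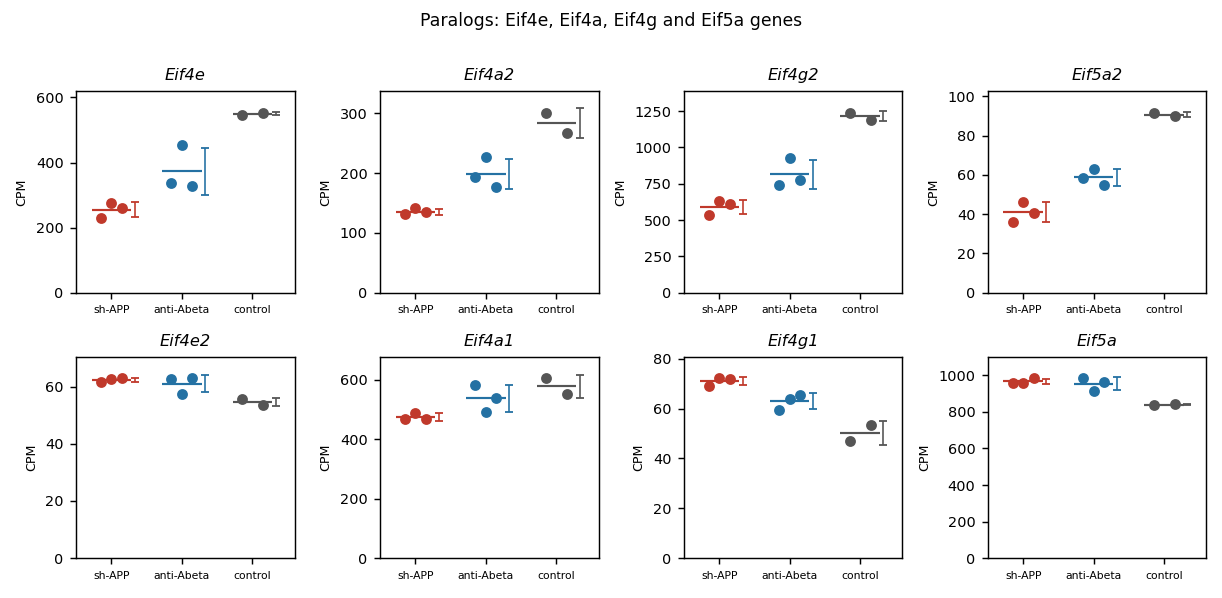
Level (y axis, CPM after TMM scaling, from 0) of Eif4e, Eif4a2, Eif4g2 and Eif5a2 (top row) above their relatives Eif4e2, Eif4a1, Eif4g1 and Eif5a (bottom row) in sh-APP (n = 3), anti-Abeta (n = 3) and control (n = 2). Points are libraries, lines are means and bars are SD. Every gene of the top row is lowest in sh-APP, at 231 to 276 CPM for Eif4e, and highest in control.

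Among the later initiation factors, Eif6 rose most of the 54 in sh-APP against control. Eif6, which keeps the large ribosomal subunit from joining too early, had 155, 150 and 152 CPM in sh-APP and 130, 122 and 130 CPM in anti-Abeta, against 98.4 and 95.4 CPM in control. The groups were apart, and sh-APP was higher by 0.65 ± 0.07 than control (adjusted p = 1.47e-05) and by 0.26 ± 0.06 than anti-Abeta (0.00935). Eif5b, the GTPase of subunit joining, had 8.05, 8.30 and 7.01 CPM in sh-APP and 9.05, 7.24 and 8.46 CPM in anti-Abeta, against 12.7 and 12.0 CPM in control (-0.67 ± 0.15, 0.00244 in sh-APP). Both arms lay below control and overlapped each other. Eif5a, the hypusine-bearing factor that helps the ribosome past prolines, had 961, 960 and 984 CPM in sh-APP and 985, 917 and 962 CPM in anti-Abeta, against 837 and 844 CPM in control (0.20 ± 0.07, 0.0200). That call was lost without sh-APP replicate 3 (0.0638), without control replicate 1 (0.0761) and with the replicate number as a block (0.0597), and Eif5a overlaps Gps2. Its copy Eif5a2 had 36.2, 46.1 and 40.7 CPM in sh-APP and 58.6, 63.2 and 54.7 CPM in anti-Abeta, against 91.6 and 89.8 CPM in control (-1.15 ± 0.10, 5.76e-06). The log2 ratio of Eif5a2 to Eif5a averaged -4.57 ± 0.176 in sh-APP and -4.02 ± 0.146 in anti-Abeta, against -3.21 ± 0.0284 in control (SD).

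Elongation factor genes had modest changes. Eef2, the translocase, had 1263, 1228 and 1205 CPM in sh-APP and 1222, 1160 and 1205 CPM in anti-Abeta, against 885 and 961 CPM in control. The arms overlapped each other and lay above control, and sh-APP was higher by 0.42 ± 0.07 (adjusted p = 0.000306). Its inhibitory kinase Eef2k had 85.4, 77.4 and 84.9 CPM in sh-APP and 79.7, 64.5 and 76.8 CPM in anti-Abeta, against 59.0 and 63.9 CPM in control, and rose in sh-APP by 0.43 ± 0.10 (0.00302). Eef1a1, the tRNA carrier, had 1285, 1181 and 1215 CPM in sh-APP and 1297, 1193 and 1218 CPM in anti-Abeta, against 1063 and 1070 CPM in control (0.20 ± 0.07, 0.0290 in sh-APP). The Eef1a1 call did not hold without sh-APP replicate 1 or 3 or either control replicate, with an adjusted p of 0.0600 to 0.115. The neuronal and muscle copy Eef1a2 was nearly absent.

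The eEF1B exchange complex divided like eIF3. Eef1g, its gamma subunit, had 535, 522 and 491 CPM in sh-APP and 508, 473 and 500 CPM in anti-Abeta, against 402 and 400 CPM in control, and rose in sh-APP by 0.36 ± 0.07 (adjusted p = 0.000806). Eef1d, its delta subunit, rose by 0.36 ± 0.07 (0.00135) and overlaps Tigd5. Eef1b2, another subunit of this complex, had 150, 172 and 140 CPM in sh-APP and 163, 153 and 180 CPM in anti-Abeta, against 233 and 200 CPM in control (-0.49 ± 0.10, 0.00141). Eef1e1, known as AIMP3 and part of the multisynthetase complex, had 47.5, 55.8 and 50.4 CPM in sh-APP and 62.2, 68.6 and 63.1 CPM in anti-Abeta, against 79.0 and 68.1 CPM in control (-0.52 ± 0.10, 0.000608). For Eef1b2 the arms overlapped, while for Eef1e1 sh-APP lay below both other groups. The methyltransferase genes did not pass: Eef1akmt1 had 26.2 to 31.2 CPM in sh-APP, 25.2 to 28.3 CPM in anti-Abeta, and 27.2 and 28.9 CPM in control, and Eef2kmt, which overlaps Alg1, had an adjusted p of 0.0539.

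**Figure D5:**
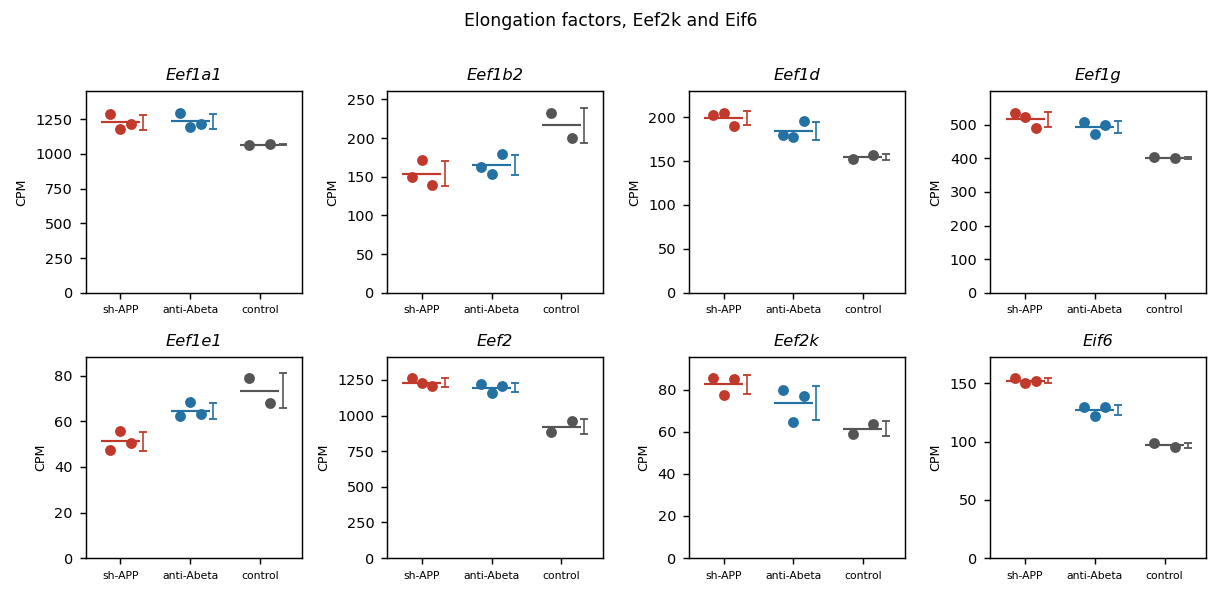
Level (y axis, CPM after TMM scaling, from 0) of genes of the eEF1 group, Eef2, Eef2k and Eif6 in sh-APP (n = 3), anti-Abeta (n = 3) and control (n = 2), with libraries as points, means as lines and SD as bars. Eef2 lies at 1205 to 1263 CPM in sh-APP and 1160 to 1222 CPM in anti-Abeta, above 885 and 961 CPM in control, and Eef1b2 and Eef1e1 are highest in control.

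Anti-Abeta against control had Eif2s1 again as the lowest and Eif6 as the highest of the called factors. Eif2s1 fell by 0.76 ± 0.10 on the log2 scale (adjusted p = 0.00226), Eif2s3y by 0.69 ± 0.10 (0.00226), Eif5a2 by 0.63 ± 0.10 (0.00264), Eif2s2 by 0.59 ± 0.07 (0.00226) and Eif2s3 by 0.39 ± 0.07 (0.00322). Eif6 rose by 0.39 ± 0.07 (0.00322). These 6 calls held when any library was left out and under every other alternative run. In all, 12 factors were higher, 18 lower and 24 did not pass, against 29.2% of all tested genes that passed, 12.7% as higher and 16.6% as lower. The median log2 fold change was 0.02 over the factors and 0.03 over all tested genes. With library totals alone the split was 25 higher and 13 lower, and the median over all tested genes was 0.18.

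All 24 other calls of the anti-Abeta arm, 11 higher and 13 lower, were lost without control replicate 1. Then 1 factor was higher and 5 were lower, and without control replicate 2 the count of higher factors was 4. It was also 4 without anti-Abeta replicate 3, and 7 without anti-Abeta replicate 1 or sh-APP replicate 3. Eif3j (-0.63 ± 0.12, adjusted p = 0.00438), Eif4g2 (-0.58 ± 0.10, 0.00307), Eif4a2 (-0.51 ± 0.10, 0.00446), Eif3a (-0.47 ± 0.09, 0.00509) and Eef2 (0.37 ± 0.07, 0.00390) had an adjusted p of 0.0555, 0.0522, 0.0737, 0.0750 and 0.0688 without that library, in that order. Eif1ax (-0.60 ± 0.15, 0.0130), Eif4e (-0.56 ± 0.13, 0.00815), Eif3g (0.34 ± 0.08, 0.0117) and Eef1g (0.30 ± 0.07, 0.00938) did not pass when either control replicate was left out. Their adjusted p was 0.0949, 0.0743, 0.0772 and 0.0800 without control replicate 1, in that order, and 0.0751, 0.0512, 0.0759 and 0.0504 without control replicate 2. No call of a factor changed direction under any alternative.

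Set beside each other, the arms share their control libraries, so their fold changes are not independent. No factor was called in opposite directions in the arms. The mean of the anti-Abeta libraries lay between those of sh-APP and control for 45 of the 54 factors (83.3%), against 71.3% of all tested genes. The direct comparison of sh-APP against anti-Abeta uses the control libraries only in the scaling and the estimate of the spread. In it 4 factors were higher and 15 lower, and 35 did not pass, against 26.1% of tested genes that passed, 10.1% as higher and 16.0% as lower. The median log2 fold change was -0.02 over the factors and -0.01 over all tested genes, and with library totals alone the split was 9 higher and 15 lower.

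Lower in sh-APP than in anti-Abeta were all 4 eIF2 subunit genes and Eif2a, both eIF1A genes, Eif3a, Eif3j and Eif3el1, Eif4e, Eif4a2 and Eif4g2, Eif5a2 and Eef1e1. Among these, the fold change was -0.78 ± 0.14 for Eif1ax (adjusted p = 0.00232), -0.64 ± 0.11 for Eif3j (0.00205), -0.55 ± 0.09 for Eif4a2 (0.00155), -0.54 ± 0.11 for Eif4e (0.00519), -0.52 ± 0.09 for Eif5a2 (0.00246), -0.46 ± 0.09 for Eif4g2 (0.00370) and -0.36 ± 0.08 for Eif3a (0.00896). Of the 15, Eif2a (-0.41 ± 0.11, 0.0163) and Eef1e1 (-0.34 ± 0.09, 0.0147) lost the call when 1 library was left out. For Eif2a these were sh-APP replicate 1 (0.0695) and anti-Abeta replicate 1 (0.0615), and for Eef1e1 sh-APP replicate 1 or 3 (0.0668 and 0.0523) and anti-Abeta replicate 2 (0.0579). The higher genes were Eif6, Eif2b2 (0.24 ± 0.08, 0.0367), Eif2b4 (0.23 ± 0.08, 0.0402) and Eif3g (0.22 ± 0.07, 0.0434). Eif6 alone of these 4 kept its call whichever library was left out. The count of higher factors was 1 without sh-APP replicate 1, 2 or 3 and 2 without anti-Abeta replicate 2. Without 1 of those sh-APP libraries or an anti-Abeta library (replicate 1 or 2 for Eif2b2, 1 or 3 for Eif2b4, 2 for Eif3g) the adjusted p was 0.0522 to 0.129 for Eif2b2, 0.0518 to 0.165 for Eif2b4 and 0.0597 to 0.151 for Eif3g. Eef2 (0.04 ± 0.06, 0.657), Eef1a1 (-0.01 ± 0.06, 0.927) and Eif5b (-0.08, 0.710) did not pass.

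The factors together held 1.207, 1.213 and 1.176% of all counts in sh-APP and 1.253, 1.217 and 1.251% in anti-Abeta, against 1.213 and 1.1997% in control. Sh-APP and control overlapped, and anti-Abeta lay above both. The mean differed by -0.00737 percentage points between sh-APP and control (exact permutation p = 1.0), by 0.0341 between anti-Abeta and control (p = 0.2) and by -0.0414 between sh-APP and anti-Abeta (p = 0.1). These two-sided tests cannot go below 0.2 and 0.1. With the mitochondrially encoded genes left out of the total, the differences from control were -0.0514 for sh-APP and 0.00468 for anti-Abeta.

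Regulators of the factors and other genes of translation were read from 5 lists with 61 tested genes. These are called regulator lists, though they also hold release and recycling genes and mitochondrial translation factors. Of the 61, 20 were higher and 26 lower in sh-APP against control (32.8% and 42.6%), with a median of -0.09. Of all tested genes, 25.8% were higher and 27.9% lower. With library totals alone 27 of the 61 were higher and 21 lower. In the list of eIF2 kinases and the stress response, 3 of 13 rose and 4 fell (23.1% and 30.8%), near the shares of all tested genes. Impact, an inhibitor of the kinase GCN2, had 54.5, 45.2 and 49.7 CPM in sh-APP and 82.1, 77.8 and 65.1 CPM in anti-Abeta, against 118 and 108 CPM in control. Its fold change in sh-APP was -1.18 ± 0.11 (adjusted p = 6.10e-06), and its groups did not overlap. The double-stranded RNA kinase gene Eif2ak2 (-0.997 ± 0.12, 3.85e-05) and the adaptor Nck1 (-0.97 ± 0.10, 1.19e-05) fell too, while Ppp1r15a, which directs the removal of phosphate from eIF2 alpha, rose by 0.54 ± 0.08 (0.000144). In the list of cap-binding repressors and eIF4 regulators, 3 of 12 rose and 6 fell. Without control replicate 1 the lower ones numbered 3, since Eif4ebp3 (0.0929), Pabpc1 (0.231) and Gigyf2 (0.276) did not pass then. Eif4ebp1, the repressor of eIF4E that mTORC1 switches off, had 106, 111 and 98.8 CPM in sh-APP and 83.3, 73.3 and 87.7 CPM in anti-Abeta, against 63.8 and 61.0 CPM in control (0.75 ± 0.09, 3.42e-05). Its groups were apart, in the reverse order of those of Eif4e. Pdcd4, an inhibitor of eIF4A (-0.65 ± 0.09, 9.74e-05), and the poly(A)-binding-protein partners Paip1 (-0.92 ± 0.08, 4.99e-06) and Paip2 (-0.88 ± 0.14, 0.000180) fell.

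In the list of mTORC1 and S6 kinase genes, 8 of 14 rose and 3 fell (57.1% and 21.4%), with a median of 0.46. Without control replicate 1, 5 were higher, since Tsc1 (0.0794), Ddit4 (0.0551) and Rps6kb2 (0.0923) did not pass then, and without control replicate 2 the number was 6. The 3 that fell were Rheb, the GTPase that activates mTORC1 (-1.06 ± 0.12, adjusted p = 1.58e-05), and the kinase genes Rps6kb1 (-0.82 ± 0.10, 2.62e-05) and Rps6ka3 (-1.05 ± 0.13, 3.06e-05). Tsc2, an inhibitor of Rheb, rose by 0.57 ± 0.08 (8.48e-05). These genes were named by their smallest p, so most genes of the list that rose have no value here. In anti-Abeta against control Mtor, Rptor, Mlst8 and Rps6ka1 were called higher, while Rheb, Rps6kb1 and Rps6ka3 were called lower. The calls of Mtor, Rptor, Mlst8 and Rps6ka1 were lost without anti-Abeta replicate 1 or 3. Of 12 other initiation, release and recycling genes, 3 rose and 7 fell, led by Mcts1, the partner of Denr in reinitiation (-1.32 ± 0.10, 4.08e-06), the helicase Ddx3x (-1.28 ± 0.11, 5.59e-06), the release factor Etf1 (-0.82 ± 0.09, 1.29e-05) and the recycling factor Abce1 (-0.77 ± 0.08, 9.03e-06). Of 10 mitochondrial translation factors, 3 rose and 6 fell, with Tufm higher by 0.40 ± 0.07 (0.000285) and Guf1 and Mtif2 lower, with fold changes of -1.10 ± 0.14 (5.11e-05) and -0.93 ± 0.12 (4.20e-05). Without control replicate 1 this list had 2 higher and 3 lower, and with library totals alone 3 higher and 3 lower. The list genes given with a fold change for sh-APP kept their calls whichever library was left out. Eif4ebp3, Pabpc1, Gigyf2, Tsc1, Ddit4, Rps6kb2 and the mitochondrial factors Mtif3, Gfm1, Mtrf1l and Mrrf did not. In anti-Abeta against control 14 of the 61 were higher and 20 lower (23% and 32.8%), against 12.7% and 16.6% of all tested genes. With library totals alone 18 of the 61 were higher and 15 lower. The higher genes numbered 8 without anti-Abeta replicate 1, 5 without anti-Abeta replicate 3 and 4 without control replicate 2, and without control replicate 1 there was 1 higher and 1 lower. Of the 20 genes that the naming rule took there, Mcts1 (-0.76 ± 0.10, 0.00226) and Tsc2 (0.46 ± 0.08, 0.00297) kept their calls whichever library was left out, and each of the other 18 lost it without control replicate 1. In sh-APP against anti-Abeta 5 were higher and 16 lower (8.2% and 26.2%), against 10.1% and 16% of all tested genes. With library totals alone 10 of the 61 were higher and 14 lower. The higher genes numbered 2 without sh-APP replicate 1 and 3 without sh-APP replicate 3. Among the genes called were Ddx3x (-0.69 ± 0.10, 0.00108), Paip1 (-0.48 ± 0.07, 0.00110), Impact (-0.59 ± 0.10, 0.00168) and Eif4ebp1 (0.37 ± 0.08, 0.00628), which kept their calls whichever library was left out.

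Other measures differed between the groups. Of 25 proliferation genes tested, 22 were lower in sh-APP against control (88%, against 27.9% of all tested genes). Their summed level was 596 to 764 CPM in sh-APP and 1060 to 1300 CPM in anti-Abeta, against 1224 and 1348 CPM in control. In anti-Abeta against control 3 of the 25 were lower and 2 higher, and the sums overlapped. These are 12% and 8%, against 16.6% and 12.7% of all tested genes. In sh-APP against anti-Abeta 24 of the 25 were lower (96%, against 16% of all tested genes). The mitochondrially encoded share was lowest in sh-APP and highest in control, as given above. So was the neuronal sum, carried by Map2 and Snap25, although 3 of the 8 neuronal markers were called higher and 3 lower in sh-APP against control, Stmn2 among the higher with means of 8.23 CPM in sh-APP, 1.57 CPM in anti-Abeta and 1.43 CPM in control. The part of these in the factor results was not tested. The factors that rose in sh-APP came from shorter genes, with a median span of 9.92 kb on GRCr8, than those that fell (17.9 kb) or did not pass (19.8 kb). The same order of higher against lower held over all tested genes with a known span (85.9% of them), at 15.6 kb for the higher and 33.9 kb for the lower. Median GC content of the promoters was 61.7% in factors that rose and 60.3% in those that fell. Of the factors, 24 overlap another gene in that table, some of them only a small RNA gene or a LOC entry. The build listed for the counts is rn6, and strand was not given for the counting. How reads from shared bases were counted is thus not known.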

How the data were processed

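Gene expression was measured by RNA-seq in 8 astrocyte libraries. The authors deposited 1 table of raw counts per gene symbol, checked here to hold whole numbers. The submitters' processing notes list DESeq2 1.24.0, HTSeq 0.11.1, STAR 2.6.0a, SAMtools 1.9, Trimmomatic 0.36 and FastQC 0.11.7, and the build rn6, without their roles. In the sources used here, kit and strand are not given.

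All libraries entered a single edgeR 4.0.16 fit (R 4.3.3) whose only term was the group, with TMM factors, the robust quasi-likelihood test and 5 residual degrees of freedom. filterByExpr (minimum count 10, minimum total 15) left 14445 genes, over which p-values were adjusted by Benjamini-Hochberg, with a threshold of 0.05. Levels are CPM after TMM scaling. CPM is not divided by gene length, so levels are compared between groups and not between genes. The SE was taken as the log2 fold change over the root of its F value. Shares and ratios were compared by exact permutation tests in SciPy 1.17.1. The alternatives were DESeq2 1.42.0, limma-voom (limma 3.58.1), DESeq2-type size factors, library totals alone, no low-count filter, 10 counts in 3 libraries, a block for replicate number, fits of only the groups compared, and the omission of single libraries.

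The test was checked on simulated counts. At this depth the spread between libraries sets the precision. Whether libraries within a group are separate cultures is not labelled, so each p-value covers only library-to-library spread, which may be technical.

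The factors, complexes, regulator lists, markers and motifs were chosen with earlier results of these data known. Per-library values are given for the 4 called factors with the largest change in each direction and comparison at a mean of at least 5 CPM, for the copies compared by ratio other than Eef1a2, and for Eif2s1, Eef2, Eef2k and Eif6. Other factors are given as examples. From each regulator list up to 4 called genes with the smallest p were eligible. Gene spans, overlaps and promoters come from RefSeq tables of GRCr8, not of rn6, and all 54 factors matched by symbol.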

Additional observations from a re-analysis of the deposited data

How the results depend on the processing

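No call of a factor reversed under any alternative. Leaving out 1 library gave, for sh-APP against control, 15 to 21 factors higher and 18 to 21 lower, and 17 to 21 and 20 to 26 genes of the regulator lists. It gave 1 to 15 and 5 to 18 factors, and 1 to 14 and 1 to 21 list genes, for anti-Abeta against control. For sh-APP against anti-Abeta it gave 1 to 4 and 13 to 16 factors, and 2 to 6 and 11 to 16 list genes. With 1 control library left, that library is assumed to vary like the other groups. Differences in the share of counts ranged from -0.01463 to 0.003989 (sh-APP against control), 0.02744 to 0.04565 (anti-Abeta against control) and -0.05302 to -0.03007 (sh-APP against anti-Abeta). Without the mitochondrially encoded genes in the total the first was -0.0514 and the second 0.004681. Higher factors in anti-Abeta against control numbered 25 with library totals alone and 5 with only the groups compared. In sh-APP against anti-Abeta, library totals alone gave 9 higher factors and 10 higher list genes, and limma-voom 3 higher list genes. With the replicate number as a block, higher calls in anti-Abeta against control were 5 factors and 9 list genes, and in sh-APP against anti-Abeta 2 factors. Same-numbered sh-APP and anti-Abeta libraries deviated with correlations of 0.105, 0.0984 and -0.00562, so the numbers were not taken to pair libraries. Apart from the scaling itself, the cause of these changes was not tested.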

Other observations

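The Y-linked Eif2s3y fell further than its X-linked copy Eif2s3. The ratio of their counts was 0.551, 0.642 and 0.571 in sh-APP and 0.712, 0.802 and 0.722 in anti-Abeta, against 0.944 and 0.901 in control, and no group overlapped another. Another such pair, Kdm5d on Y and Kdm5c on X, both histone demethylases, had count ratios of 0.169, 0.167 and 0.167 in sh-APP and 0.217, 0.274 and 0.245 in anti-Abeta, against 0.350 and 0.406 in control, in the same order of groups. Kdm5d was lower in sh-APP, at 12.95, 12.92 and 12.97 CPM against 19.8 and 23.9 CPM in control. Kdm5c was higher there, at 76.5, 77.6 and 77.7 CPM against 56.5 and 58.9 CPM, while Eif2s3 was lower. The ratio of Kdm5d to Kdm5c was thus lower in part through its denominator. Ddx3y, the Y-linked copy of Ddx3x, had 0 to 20 counts per library, and no ratio is given. The Kdm5d pair was chosen after the Eif2s3y values were seen. The sources used here do not give the share of male pups behind each library.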
